A study of Arabidopsis thaliana and Zea mays with 12 samples.

Results

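CSA1 (AT5G17880) and SAG101 (AT5G14930) are protein-coding genes of Arabidopsis thaliana chromosome 5 that act in plant immunity, and the first codes for a receptor of the TIR-NBS-LRR class. They are 2 of the 13356 genes that the platform annotation ties to a probe set of their own on the Arabidopsis arrays. Each is read by 1 probe set, CSA1 by 250063_at and SAG101 by 246600_at, out of 22746 probe sets on these arrays and 40367 in the whole series with maize included. They were chosen by name with their signals in Br and Ag plants already known, so the values of both genes in that comparison are given as a description and without a test.

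The comparison is of leaf tissue from plants of a phenotype labelled Br with leaf tissue from plants of a phenotype labelled Ag, on 3 one-colour Affymetrix arrays each. Replicates are named as biological in the labels, which give no genotype or treatment beyond the phenotype name. All plants of both groups had grown for 2 weeks from seed and were taken near the middle of the light period. RNA of several plants had been pooled for each array, so the spread between arrays is a spread between pools. The maize arrays of the series were not used for these genes.

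Receptors of the TIR-NBS-LRR class sit inside the cell and respond to traces of a pathogen, and their TIR domain makes small signalling molecules from NAD. Those molecules are sensed by EDS1 paired with either SAG101 or PAD4. The pair with SAG101 engages the helper receptors of the NRG1 group, which drive cell death at the infected site, and the pair with PAD4 engages those of the ADR1 group, which drive transcriptional defence. SAG101 was first described as a gene induced in ageing leaves, as its name, senescence-associated gene, records. CSA1 takes its name, constitutive shade avoidance, from a mutant with an altered response to shade, and it works with the receptor CHS3 encoded by a neighbouring gene, while the receptor-like protein BIR3 is one of the partners that CSA1 guards.

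CSA1 had a clear signal in every Br array and a low one in every Ag array. Its deposited intensity was 168, 135 and 129 in Br arrays 1, 2 and 3, against 3.02, 7.73 and 5.73 in the Ag arrays. The groups did not overlap: the lowest Br array was 16.7 times the highest Ag array. Detection calls were not used here, so the Ag signals are not shown to be above background, and ratios to them are ratios of deposited signals, not of transcript amounts. Groups did not overlap for 20.7% of all probe sets, and nothing is read from CSA1 being among them, since the gene was chosen from this contrast.

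On the linear scale CSA1 averaged 144 ± 21.2 in Br and 5.49 ± 2.36 in Ag (SD, n = 3 each). The ratio of these means, 26.2, carries the same limit. On the scale used for the fits, log2(intensity + 16) after quantile normalization, the change was 2.84 ± 0.16 (SE), Br minus Ag. The added 16 damps the weight of dim signals and largely sets the size of this change, which was 4.44 with 1 added and 1.56 with 64 added. The relative spread was 14.7% of the mean in Br and 43.0% in Ag. In Br the probe set stood at percentiles 82.3, 78.3 and 77.6 of all probe sets on arrays 1, 2 and 3. In Ag it was towards the low end of the array range, at percentiles 13.6, 26.9 and 20.8. These percentiles place the signal on its array and do not compare amounts of transcript, since probe sets differ in how brightly they read.

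**Figure D1:**
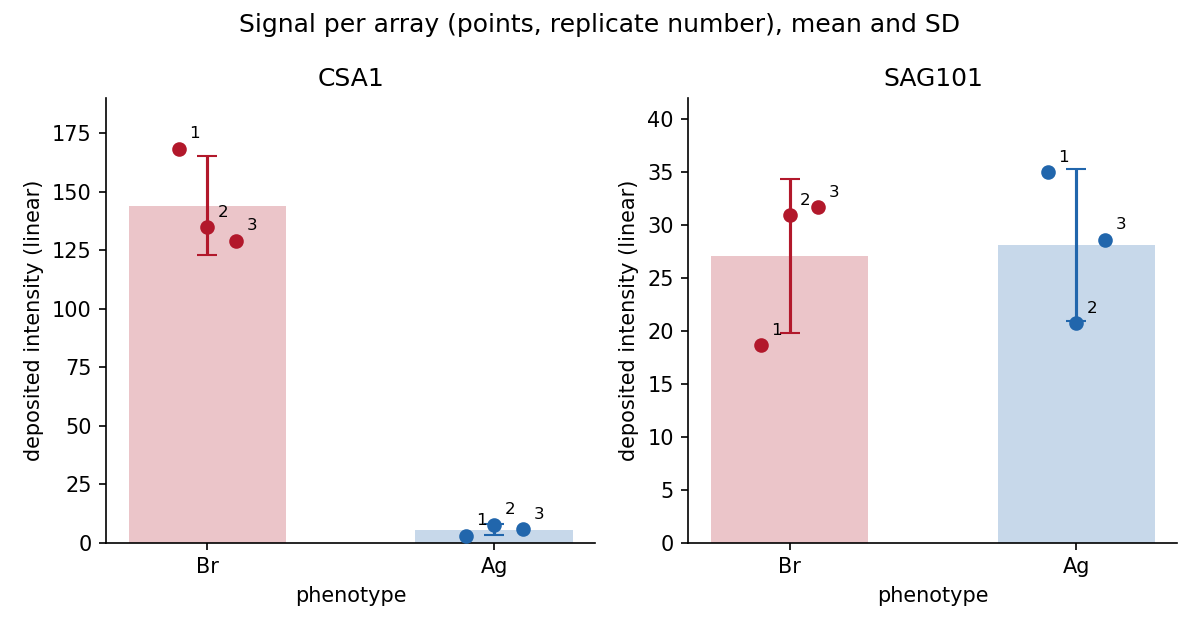
Deposited intensity on a linear axis of CSA1 (left) and SAG101 (right) in the 3 Br and the 3 Ag arrays. Points are arrays with their replicate number, bars are group means and error bars are SD. The CSA1 points lie between 129 and 168 in Br and between 3.02 and 7.73 in Ag, while the SAG101 points of the groups overlap.

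SAG101 gave overlapping signals in the phenotypes, with means close to each other. It read 18.7, 30.9 and 31.7 in Br arrays 1, 2 and 3, against 35.0, 20.7 and 28.6 in the Ag arrays. The groups overlapped, with the stretch between 20.7 and 31.7 common to both, and the lowest and the highest of the 6 values were the first Br array and the first Ag array. The means were 27.1 ± 7.30 in Br and 28.1 ± 7.15 in Ag (SD, n = 3 each), a ratio of 0.963. The log2 change was -0.11 ± 0.17 (SE), which is smaller than its own error. SAG101 stood between percentiles 37.2 and 47.6 of all probe sets in Br and between 42.7 and 49.6 in Ag, below the array median on every array.

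The size of the CSA1 change was exceeded by 20 of the 22746 probe sets, and 10 of those rose by more. Of these 10 rises, 5 belonged to probe sets with 1 listed gene, which were THI2.2, AT3G22240, AT4G20480, petN and AT3G19520. For SAG101, 35.9% of all probe sets had a smaller change in size and 14571 had a larger one. Across the arrays as a whole the median change was -0.0018 on the log2 scale.

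**Figure D2:**
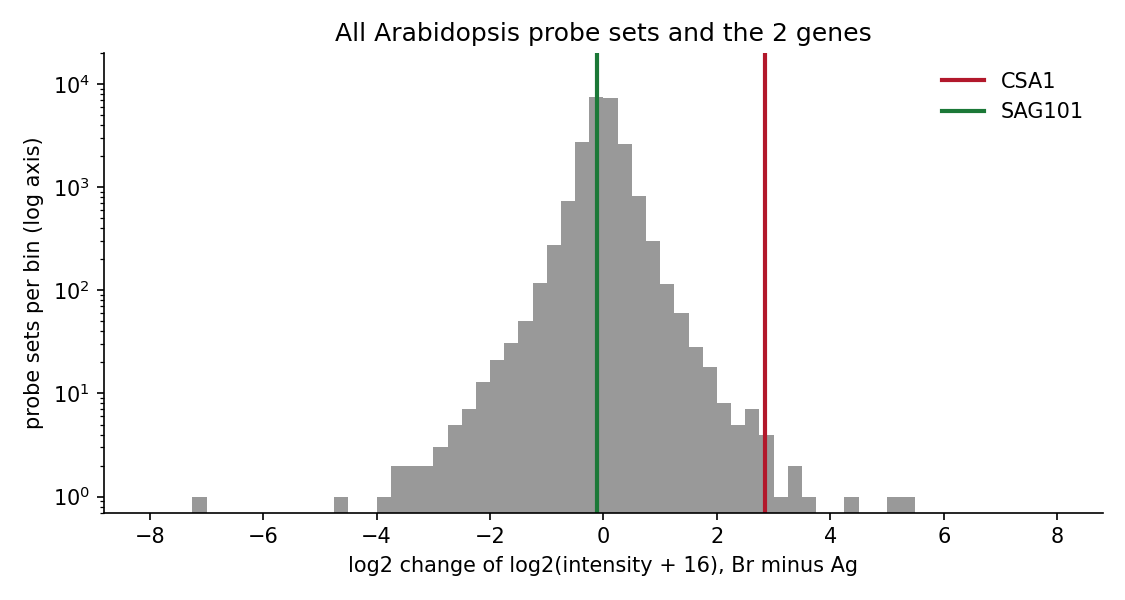
Number of probe sets (log axis) by log2 change, Br minus Ag, in bins of log2(intensity + 16) units over all 22746 Arabidopsis probe sets. The lines mark CSA1 at 2.84, in the right tail, and SAG101 at -0.11, in the centre.

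A near on-off pattern was looked for among all probe sets. With its own values as limits, CSA1 was the 1 probe set at or above 129 in every Br array and at or under 7.73 in every Ag array. In the opposite direction 1 probe set met the same limits, that of AT1G23960. It read 1.23, 0.526 and 2.77 in the Br arrays, against 258, 198 and 260 in the Ag arrays. The limits come from CSA1 itself, so the count covers those levels alone and tests nothing. AT3G19520, with a larger log2 change of 2.89, read 125 to 130 in Br and 0.230 to 9.93 in Ag and missed both limits. An array reads a transcript through its probes alone, and the probe sequences were not used here.

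The spread within each group was set beside that of probe sets with a mean within 0.25 log2 units in the same group. For CSA1 the SD of normalized log2 values was 0.19 in Br, beside a median of 0.20 over 1591 such probe sets, and 0.23 in Ag, beside a median of 0.23 over 4301. For SAG101 it was 0.28 in Br, beside a median of 0.20 over 2222, and 0.17 in Ag, beside a median of 0.19 over 2197. SAG101 in Br was thus more spread than 70.7% of the probe sets of like brightness. The first Br array had the highest CSA1 signal and the lowest SAG101 signal of its group.

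That first Br array also stood apart from the other Br arrays over all genes. On the first principal component of the normalized values, with 45.5% of the variance, it lay at 5.57, against 34.5 and 42.6 for the other Br arrays and -32.8 to -24.6 for the Ag arrays. On the second component the first arrays of both groups stood apart, Br 1 at 36.8 and Ag 1 at 19.0, against -28.9 to -7.05 for the others. Without the first Br array the log2 change was 2.74 for CSA1 and 0.045 for SAG101. Without the first array of both groups it was 2.64 for CSA1 and 0.13 for SAG101, so the sign of the small SAG101 value depends on these arrays.

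Signs of RNA quality moved with the groups. The ratio of 3' to 5' signal, which grows as RNA is broken, was lower in every Br array than in every Ag array for 4 of 6 pairs of control probe sets. For ubiquitin it ran from 0.908 to 1.21 in Br, against 1.76 to 2.35 in Ag, by one pair of control probe sets, and from 2.27 to 2.94 in Br, against 3.37 to 5.22 in Ag, by the other. The part of RNA quality in the values of CSA1 was not tested. A gene is called measured here where the annotation ties a probe set to it alone, and 8730 probe sets had no listed gene. Genes called not measured may thus still be read by the arrays. Of the leaf markers fixed for the check of the tissue, 3 of 6 were measured (RCA, LHCB4.1 and PSAE-1). Their summed deposited signal was 13721 to 14983 in Br and 15900 to 20097 in Ag. On the quantile-normalized scale of the fits the log2 changes of these 3 were -0.017, -0.0042 and 0.056 (limma adjusted p from 0.88 to 0.99). Of the root markers 2 of 8 were measured (EXPA7 and EXPA18), with sums of 12.0 to 18.8 in Br and 15.5 to 21.7 in Ag, and 0 of 5 flower and seed markers were measured. None of the measured markers was at 0. In bulk leaf RNA, fewer cells with a transcript and less of it per cell cannot be told apart.

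The pathway around the 2 genes was read from lists of immune, senescence and light genes. Few of the listed genes had a probe set of their own in the annotation, 14 of 127, and of these 1 passed the limma test at an adjusted p of 0.05, lower in Br. The background is that 2.08% of all probe sets passed, 0.963% higher and 1.12% lower in Br, so 1 of 14 is not a result about these genes. Over the 14 genes the median log2 change was -0.030, beside -0.0018 over all probe sets, and 7 were positive. The groups did not overlap for 6 of the 14, a larger share than the 20.7% of all probe sets. Among the 6 were AT1G17600, AT1G17615 and UGT76B1, all dim. They averaged 1.73, 0.921 and 2.84 in Br and 10.2, 0.335 and 0.554 in Ag. No set test was run, and nothing is read from this count. Before adjustment, 3 of the 14 had a limma p under 0.05, where 16.1% of all probe sets did, so the count of 3 is near the background.

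In the list of EDS1 signalling genes, 3 of 16 were measured and 0 passed the limma test. At an unadjusted p under 0.05 there was 1, beside 16.1% of all probe sets, and that one was SGT1A, which codes for a co-chaperone that keeps immune receptors stable. It read 66.7, 93.8 and 109 in the Br arrays, against 43.8, 35.6 and 57.7 in the Ag arrays. The groups did not overlap, but the log2 change of 0.72 ± 0.20 (SE) missed the threshold over all probe sets (limma adjusted p = 0.13). Without the first Br array it was 0.90 and passed by a narrow margin (limma adjusted p = 0.0499), in a fit where 884 of all probe sets passed, against 473 with all arrays. The other measured loci of that list were AT3G48080 (EDS1B) and AT5G66890 (NRG1C). Both were dim, with means of 3.85 ± 2.55 and 3.98 ± 3.04 in Br and 2.15 ± 2.37 and 6.22 ± 5.16 in Ag. EDS1, PAD4, NDR1 and the ADR1 genes were not analysed here.

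Of the listed partners of CSA1, 1 of 9 was measured, AT1G27190, which is BIR3. It read 127, 167 and 154 in the Br arrays, against 147, 177 and 154 in the Ag arrays. These values overlapped, and the difference on the log2 scale was -0.099 ± 0.14 (SE), with a limma adjusted p of 0.80, and without the first Br array the change was 0.0040. This list had 0 genes at an unadjusted limma p under 0.05. The paired receptor gene CHS3, listed as DAR4 in the gene table, and the co-receptor gene BAK1 were not analysed here.

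In the list of immune receptors of the NBS-LRR type and related loci, 5 of 27 were measured and 1 passed, AT1G17600, which fell. It read 2.47, 1.99 and 0.747 in the Br arrays, against 12.8, 8.03 and 9.82 in the Ag arrays. The groups did not overlap and it fell by 0.60 ± 0.11 on the log2 scale (SE, limma adjusted p = 0.045). All 6 values were low, and the call was lost when any 1 array was left out (limma adjusted p from 0.051 to 0.16). The 4 loci that did not pass had log2 changes from -0.10 to 0.18. The brightest of them, AT5G45060, read 39.6 ± 3.64 in Br and 31.0 ± 1.64 in Ag (limma adjusted p = 0.53).

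**Figure D3:**
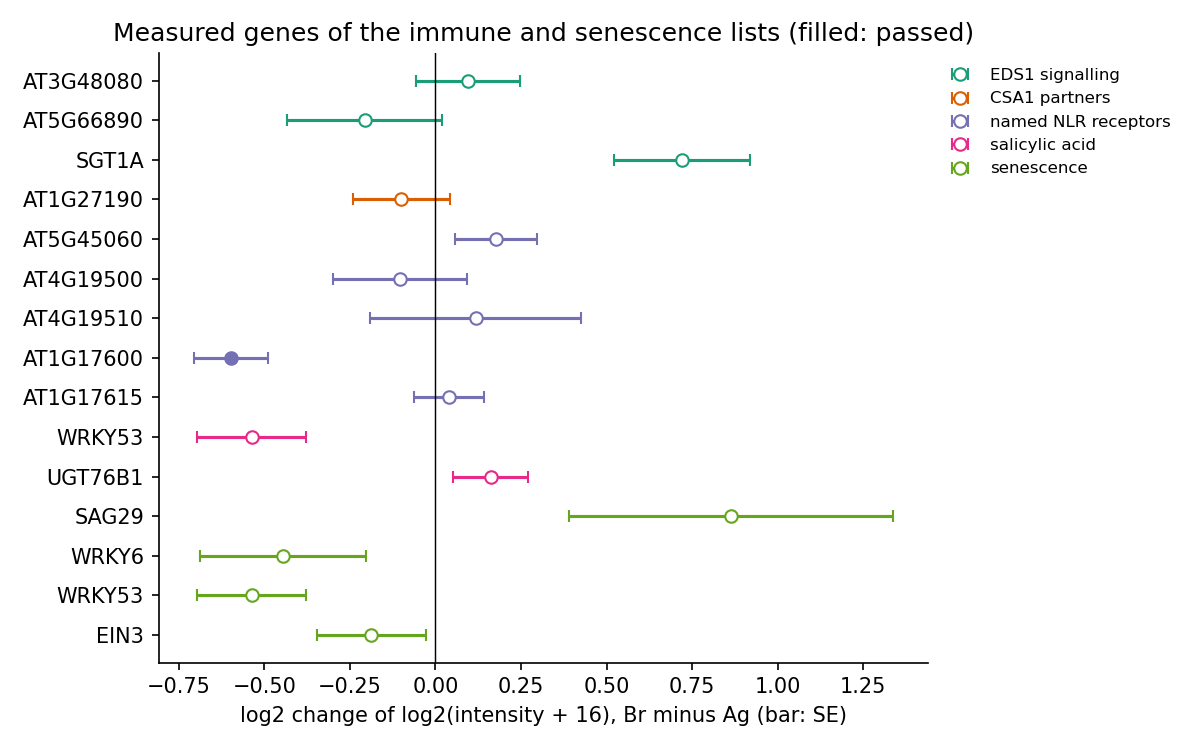
Log2 change of log2(intensity + 16), Br minus Ag, of the measured genes of the lists, with SE bars from limma. Open points missed an adjusted p of 0.05 and the filled point, AT1G17600 at -0.60, passed. WRKY53 is drawn in both lists that hold it.

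Salicylic acid is the hormone that EDS1 signalling raises, and its list had 2 of 31 genes measured. WRKY53, a transcription factor gene of defence and leaf ageing that the senescence list holds too, read 18.5, 14.0 and 9.78 in the Br arrays, against 25.4, 29.1 and 22.0 in the Ag arrays. Its groups did not overlap, and the log2 change of -0.54 ± 0.16 (SE) missed the threshold (limma adjusted p = 0.16). UGT76B1, for an enzyme that glucosylates salicylic acid and isoleucic acid, was dim at 2.84 ± 1.12 in Br and 0.554 ± 0.263 in Ag (log2 change 0.16, limma adjusted p = 0.54). By limma 0 of the 2 passed, with 1, WRKY53, at an unadjusted p under 0.05, beside 16.1% of all probe sets. The marker genes PR1, PR2 and PR5 and the synthesis gene ICS1 were not analysed here.

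The senescence list, relevant to SAG101 by its name, had 4 of 27 genes measured, and 0 passed by limma. At an unadjusted limma p under 0.05 there was 1, again WRKY53, beside 16.1% of all probe sets. SAG29, a sugar transporter gene that rises in ageing leaves, read 2.07, 40.2 and 46.7 in the Br arrays, against 2.70, 11.8 and 2.03 in the Ag arrays. The first Br array was as low as the Ag arrays while the other Br arrays were above all of them, and the log2 change was 0.86 ± 0.47 (SE, limma adjusted p = 0.44). Without that array, the one that went against the rise, it was 1.43 and passed (limma adjusted p = 0.039). In that fit 884 of all probe sets passed, against 473 with all arrays. WRKY6, a transcription factor gene of ageing leaves, averaged 8.28 ± 3.97 in Br and 16.6 ± 9.12 in Ag. EIN3, for the main transcription factor of ethylene signalling, averaged 432 ± 61.1 in Br and 503 ± 59.5 in Ag. Both overlapped between groups and missed the threshold (limma adjusted p = 0.43 and 0.63). Of the phytochrome and shade list, to which the CSA1 mutant is linked by its name, 0 of 18 genes had a probe set of their own in the annotation. Whether unlisted probe sets read them is not known here.

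No measured gene near CSA1 on the chromosome passed the test, and the genes directly beside it were not measured. Of its 10 nearest measured neighbours, 5 on each side and up to 14 genes away, 0 passed the limma test, where 2.08% of all probe sets did. An unadjusted p under 0.05 was reached by 2 of the 10, where 16.1% of all probe sets reached it. Their log2 changes ran from -0.42 to 0.41, with a median of 0.0074, against 2.84 for CSA1 itself. CSA1 was chosen from this contrast, so its distance from them tests nothing. At a share of 2.08%, 0 calls among 10 genes is not a result about them either. Several of the 10 were dim in both groups, where the added 16 keeps changes small. AT5G17820, for example, averaged 1.80 in Br and 1.31 in Ag. The nearest measured one on the side of lower coordinates was AT5G17850, 3 genes away. It read 35.9, 27.0 and 28.2 in the Br arrays, against 25.1, 25.3 and 5.53 in the Ag arrays. Its groups did not overlap, and the log2 change of 0.41 ± 0.26 (SE) missed the threshold (limma adjusted p = 0.51). The nearest measured one on the other side was AT5G17910, 4 genes away. It read 106, 63.4 and 57.5 in the Br arrays, against 61.3, 33.9 and 74.7 in the Ag arrays, with overlap (log2 change 0.29, limma adjusted p = 0.67).

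The 10 nearest measured neighbours of SAG101, up to 11 genes away, were read in the same way. Beside 2.08% and 16.1% of all probe sets, 0 of these passed the limma test and 0 had an unadjusted p under 0.05. Their log2 changes ran from -0.46 to 0.21, with a median of 0.032. Several of these too were dim in both groups, such as AT5G14860 at 3.70 in Br and 0.793 in Ag. The adjacent gene AT5G14940 read 77.7, 100 and 95.3 in the Br arrays, against 117, 75.0 and 55.9 in the Ag arrays (log2 change 0.11, limma adjusted p = 0.88). GMII, which codes for a Golgi mannosidase that trims protein-bound sugars, averaged 113 ± 3.01 in Br and 116 ± 15.0 in Ag (limma adjusted p = 0.92).

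**Figure D4:**
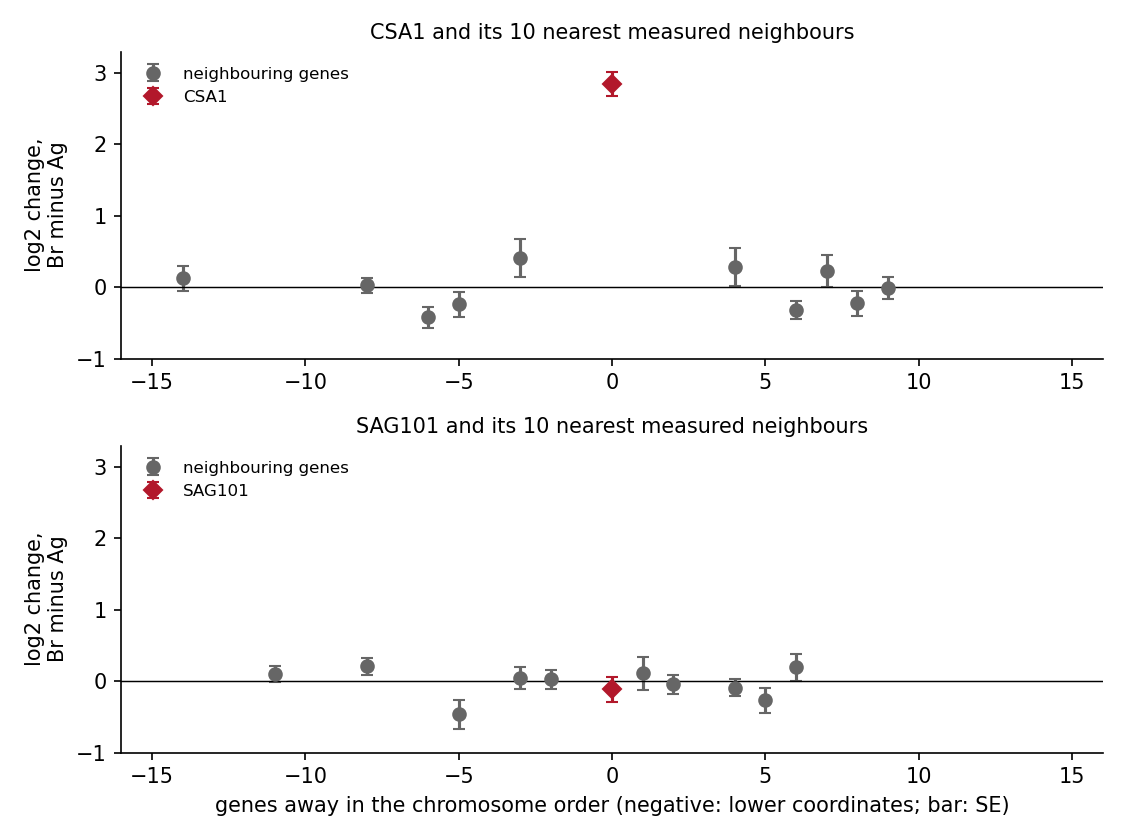
Log2 change, Br minus Ag, with SE bars, of CSA1 (top) and SAG101 (bottom) and of the 10 nearest measured genes of each, placed by how many genes away they lie. CSA1 at 2.84 stands above its neighbours, which lie between -0.42 and 0.41, and SAG101 lies among its neighbours. CSA1 was chosen from this contrast, so its place above them tests nothing.

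Profiles over the 6 arrays were compared by the root mean square difference of normalized log2 values, each profile centred on its own mean. The genes most like CSA1 were AT3G19520 at 0.32, AT4G22040 at 0.35, AT2G35820 at 0.39, AT5G24480 at 0.42 and AT5G55450 at 0.42, among 13512 other probe sets with 1 gene. AT3G19520 was the closest, at 130, 126 and 125 in the Br arrays, against 9.93, 1.06 and 0.230 in the Ag arrays. Its groups were about as far apart as those of CSA1, with a log2 change of 2.89. The other 4 had log2 changes from 2.43 to 2.63 and groups that did not overlap. The probe sets of AT4G22040 and, among the matches of SAG101, AT2G06130 end in _s_at, which marks probes shared by more than 1 transcript, so their signals are uncertain by gene. Measured the same way, 0 probe sets came within 0.25 of CSA1, and the median over all was 1.44.

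Many profiles lay near that of SAG101, which itself changed little, from -0.38 to 0.22 about its own mean. A flat profile falls within 0.25 of SAG101 too, so the count below is not one of shared patterns. A total of 5076 of the 13512 lay within 0.25 of SAG101, and the median was 0.28. The nearest 5 were AT2G06130 at 0.041, AT3G10780 at 0.049, AT5G40640 at 0.053, AT1G53360 at 0.055 and AT4G24730 at 0.056. They shared a low first Br array and a low second Ag array. AT5G40640, for example, read 24.4, 36.2 and 33.9 in the Br arrays, against 38.7, 22.6 and 32.3 in the Ag arrays. These likenesses describe 6 arrays in 2 groups, and they take in whatever the arrays share. CSA1 and SAG101 were 1.52 apart, which gave SAG101 rank 9889 among the 13512 profiles set against CSA1.

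**Figure D5:**
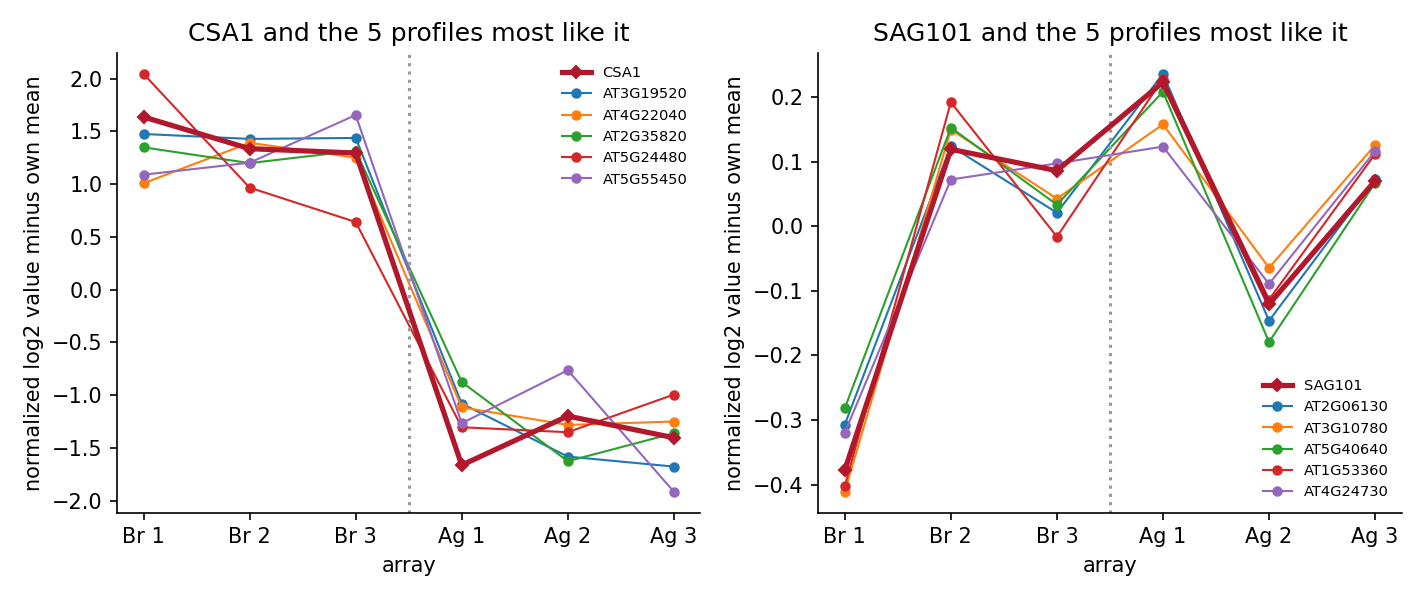
Normalized log2 values, each minus its own mean, of CSA1 (left) and SAG101 (right) in red with the 5 profiles most like each, over the 3 Br and 3 Ag arrays (lines join the values of a gene). CSA1 and its matches are high in all Br arrays and low in all Ag arrays, and SAG101 and its matches are lowest in the first Br array.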

How the data were processed

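The deposited values are linear probe set intensities. The mean of each array without its lowest and highest 2% equals 100, so the authors had scaled the arrays before deposit. The summarising software is not given in the sources used here. Values without the 64 control probe sets were analysed as log2(intensity + 16), which gave medians that differed by over 0.1 between arrays and were therefore quantile normalized over the 6 arrays. The test was limma 3.58.1 (R 4.3.3, moderated and two-sided), and p-values of all 22746 probe sets were adjusted together by the Benjamini-Hochberg method. It was tested on simulated data, and plots used matplotlib 3.10.9. Signals are given as deposited. The number of arrays, 3 a group, limits the precision.

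Groups came from the sample titles. Gene names came from GEO's platform annotation, updated with the TAIR10.1 gene table: 13513 probe sets were tied to a single gene, 503 to more than 1, and 8730 had no listed gene. Of the probe sets of a gene, the one with the highest mean was used. The members and the lists, which were drawn up from general knowledge of the loci, were chosen with earlier results of these data known. By rule, the text names list genes and neighbours that passed, 20 fixed genes, of which 1 (AT1G27190) was measured, and the 5 profiles most like each member. Other list genes, neighbours and the on-off gene were chosen after their values were seen. Deviations from group means correlated between same-numbered Br and Ag arrays at 0.32, 0.029 and 0.11, all positive. Arrays of different numbers were not compared in this way, so these values do not settle whether the numbers mark pairs. The reported fit did not take them as pairs, and a fit with the number as a block is given below. Alternatives covered scaling, pseudocount, a filter on dim probe sets, variance prior, array weights, a replicate block and arrays left out. A count over all TIR-NBS-LRR genes was not made, since the tables used here hold no gene descriptions. Every column of values had a sample (0 without).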

Additional observations from a re-analysis of the deposited data

How the results depend on the processing

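CSA1 was higher in Br in all 12 alternatives, which tests nothing, since the gene was chosen from this contrast. Of the 12, 10 moved its log2 change by less than the SD between arrays. The others were the pseudocounts, with 4.44 at a pseudocount of 1 and 1.56 at 64, as the added constant weighs on its dim Ag signal. With 1 array left out it ran from 2.74 to 2.95. The SAG101 change ran from -0.20 to 0.045 with 1 array left out and was 0.13 without the first array of both groups. The probe sets that passed numbered 111 at an adjusted p of 0.01, 148 with a pseudocount of 1, 889 with array weights, and 105 to 884 with 1 array left out, against 473. Of the 14 list genes, 1 passed in the reported fit. The count was 0 with values as deposited, with either other pseudocount, with probe sets of a mean of at least 32, and without the first array of both groups, and it was 0 to 2 with 1 array left out. The 2 without the first Br array were SGT1A and SAG29, and neither passed in any other alternative. AT1G17600 stayed lower in Br throughout and passed in 3 of 14 alternatives (limma adjusted p from 0.027 to 0.16). The change of AT1G27190 ran from -0.18 to 0.0040 with 1 array left out. With the replicate number as a block, 347 probe sets and 0 of the list genes passed, while the log2 changes are the same by construction. The neighbours gave 0 calls in all 16 alternatives. With values as deposited, an alternative chosen after seeing the data, 5 of the 5 profiles most like CSA1 and 3 of the 5 most like SAG101 stayed among the nearest 5. Why counts and changes moved between the alternatives was not tested. The count over TIR-NBS-LRR genes was not run. No detection call bears on the low Ag signal of CSA1, so it cannot be called absent.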
